A study of Mus musculus with 8 samples.

Results

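The low-abundance piRNA tail is the set of piRNAs that were barely counted in mouse testis. Its members were selected on measured values: a piRNA belonged to the tail when its raw count, averaged over all 8 mice, was under 10, that is, when its total was under 80. Of the 18975 piRNAs listed, 3230 (17.0%) met this rule, out of 20558 small RNAs of 9 classes. The rule used the counts of both diets together, so the level and the detection of the members are given as a description, and only differences between mice and between diets are compared.

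Small RNA was sequenced on a SOLiD instrument from the testes of 8 adult C57Bl/6 males. SD mice, fed a standard diet and labelled as controls, were M1N, M2N, TN1 and TN2, and mice fed the Western-like diet (WD), rich in sugar and fat and labelled as experimental, were M1W, M2W, M3W and M5W. The sample labels start the lipid-rich diet at 4 weeks and the mating at 4 months, and attach this text to the controls as well, whereas the study's methods start the diet earlier, after weaning, in the WD mice only. Each library is taken here to come from 1 mouse, following the sample names, as the paper does not state the animals per library. Counts are always given here in the order of the names above. The controls are named with an initial M (M1N, M2N) or TN (TN1, TN2), and what these letters mean is not given in the sources used here.

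PIWI-interacting RNAs (piRNAs) are germline small RNAs that are loaded onto PIWI proteins, guide them to complementary transcripts and are best known for keeping transposable elements silent. They are longer than microRNAs and are cut from long single-stranded precursors without Dicer. In the adult mouse testis most piRNAs are made in pachytene spermatocytes and round spermatids from a limited number of genomic clusters, and a cluster yields a great many different piRNAs at very unequal levels. A catalogue of such sequences therefore contains a few that are counted very often and many that are counted a handful of times. The members carry catalogue identifiers that begin with FR. Their sequences and genomic positions were not analysed here, and how a read matching several piRNAs was counted is not given in the sources used here.

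Library totals were 2064562 to 3253798 counts in SD mice and 2159625 to 3092399 in WD mice (two-sided exact permutation test, p = 0.371). In such libraries 3 counts, the floor used for a count of 0, correspond to 0.922 to 1.45 CPM, the count scaled to library size, and intervals and floors cover counting error only, since amplified reads are not independent molecules. All 8 testis microRNA markers, such as miR-34c-5p, were listed, and their summed level was 19012.9 to 22218.1 CPM in SD mice and 18837.3 to 23491.1 CPM in WD mice. Libraries of M1N and M2N stood apart from the other 6 in the counts of the members, as described below, and the results are given with and without them.

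The members together held 126823 of 19316434 piRNA counts, or 0.657%. Their totals over the 8 mice had quartiles of 20, 37 and 57, against a median total of 382 over all piRNAs. The lowest total in the deposited table was 9, shared by 86 members, so piRNAs with a smaller total were not analysed here. A single pair of members, FR148682 and FR329663, named after their values were seen, had the same count in each of the 8 mice, and all others had a pattern of their own.

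The limit cut through a continuous range of totals. Just inside it, 25 members had a total of 79, and just outside it 33 piRNAs had a total of 80. FR010118, inside, had counts of 11, 7, 8 and 14 in SD mice and of 12, 9, 7 and 11 in WD mice. FR040060, also inside, had 13, 13, 12 and 9 in SD mice and 6, 13, 4 and 9 in WD mice. None of these piRNAs was at 0 in any mouse, and in each the counts of the diets overlapped. FR015066, outside, had 12, 6, 10 and 7 in SD mice and 17, 7, 10 and 11 in WD mice, and FR016571 had 15, 18, 12 and 4 against 3, 6, 13 and 9.

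A low level was not particular to piRNAs. Among the small RNAs of the other classes, 707 had a mean under 10, among them 314 of 730 miRNAs (43.0%), 141 of 256 snoRNAs (55.1%) and 85 of 144 snRNAs (59%). By share of the class, low entries were rarer among piRNAs than in any other class but the mitochondrial tRNAs, of which 1 of 21 was low. Above the tail, 10028 piRNAs had a mean of 10 to under 100, 5437 of 100 to under 1000 and 280 of 1000 or more.

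**Figure D1:**
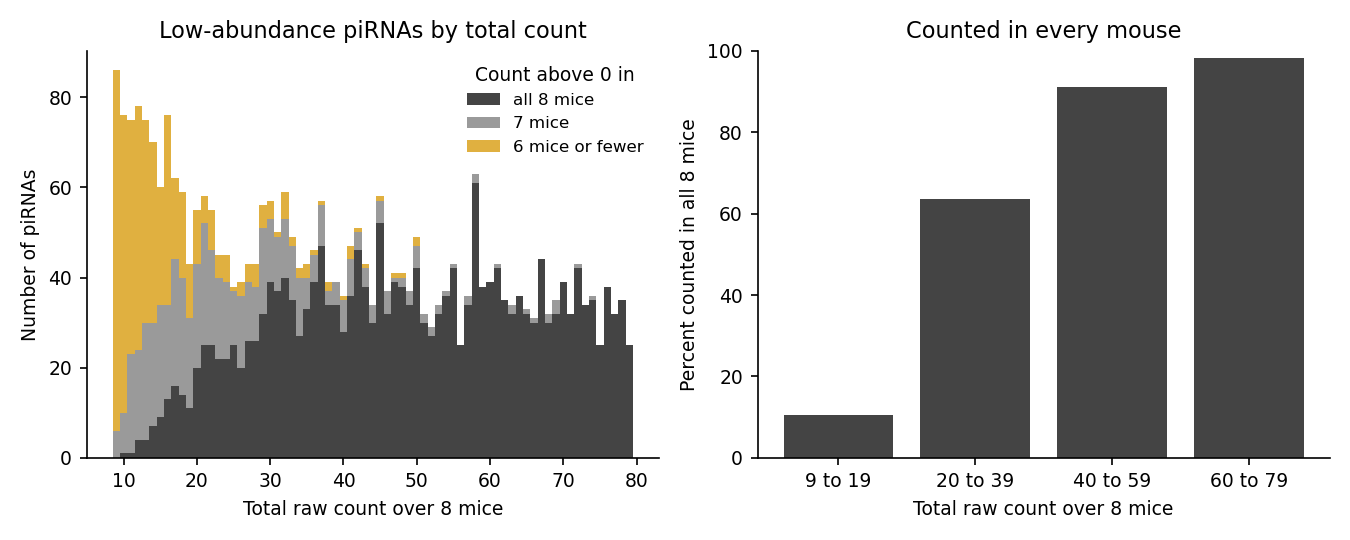
Left, the number of low-abundance piRNAs (vertical axis) by total raw count over the 8 mice (horizontal axis), coloured by the number of mice with a count above 0. Right, bars from 0 show the percent counted in all 8 mice in 4 ranges of total count, from 10.5% at totals of 9 to 19 to 98.3% at totals of 60 to 79.

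Most members were counted in every mouse in spite of their low level. A count above 0 was found in all 8 mice for 2117 members (65.5%) and in 7 mice for 570 (17.6%), and 9 members were counted in 2 mice alone, the smallest number of mice. Of the 25840 single counts, 2053 (7.95%) were 0. A count of 3 or more in each mouse, the level of the floor, was reached by 902 members. The histogram of total counts shows that the gaps lay at the bottom of the range: of the 760 members with a total of 9 to 19, 80 (10.5%) were counted in all 8 mice, against 608 of 958 (63.5%) at 20 to 39, 740 of 811 (91.2%) at 40 to 59 and 689 of 701 (98.3%) at 60 to 79. The lowest range held 8.12% of the counts of the tail and the highest 38.2%. Outside the tail, 9 of 15745 piRNAs had a count of 0 in any mouse.

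The evenest members were chosen as those with the smallest coefficients of variation. FR173464 had counts of 9, 9, 8 and 7 in SD mice and of 10, 7, 6 and 11 in WD mice, a coefficient of variation of its CPM of 9.78% over the 8 mice. FR145154 had 8, 8, 11 and 6 in SD mice and 8, 7, 6 and 8 in WD mice, a coefficient of 11.4%. They are the 2 smallest coefficients among the 2117 members counted in all mice, and say nothing of the other members. At the other end, 1 mouse could hold a large part of the counts of a member. The 3 members with the largest such share were taken from those with a total of at least 40. FR133228 had counts of 36, 4, 5 and 5 in SD mice and of 5, 3, 1 and 3 in WD mice, so that M1N held 58.1% of its total, and this 36 was the highest single count in the tail. FR113693 had 9, 20, 0 and 0 in SD mice and 6, 4, 0 and 2 in WD mice, with 48.8% of its total in M2N and none in either TN mouse. FR227090 had 24, 8, 4 and 2 against 4, 1, 4 and 6, with 45.3% in M1N. In these 3 the mouse with the high count was M1N or M2N. Over all members, whatever their total, the largest share held by 1 mouse had a median of 23.9% and a maximum of 70.6%. It was over 50% for 28 members, in M1N for 12, M5W for 6, M2N for 4, M1W for 3, M2W for 2 and TN1 for 1 of them.

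The share of piRNA counts that fell on the tail was not shown to differ between the diets. It was 0.581, 0.62, 0.651 and 0.696% in the SD mice and 0.697, 0.662, 0.645 and 0.717% in the WD mice, each with a 95% Wilson interval of at most ± 0.012 percentage points for counting error. M1N and M2N were the lowest, M5W the highest, and the diets overlapped. SD mice had a mean of 0.637% ± 0.0483 and WD mice of 0.68% ± 0.0329 (SD, n = 4). The difference, 0.0432 percentage points, did not pass the exact permutation test over the 70 assignments of the mice (two-sided, p = 0.2, adjusted over 2 such tests p = 0.314), where the smallest p possible was 0.0286. In bulk testis, fewer cells of a type and less RNA per cell cannot be told apart.

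The pairs of controls lay farther apart than the diets. M1N and M2N had a mean share of 0.601%, and TN1 and TN2 of 0.673%. With M1N and M2N as the only controls, the WD share was 0.0794 percentage points higher (exact permutation test, p = 0.133, where 2 against 4 mice cannot go below 0.0667), and against TN1 and TN2 alone 0.00696 points higher (exact permutation test, p = 0.733). Without M1N the difference between the diets was 0.0246 percentage points. Within the tail, the diets overlapped in the lowest and in the highest range of totals: the share was 0.0527% ± 0.00137 in SD mice and 0.0537% ± 0.00358 in WD mice for totals of 9 to 19, and 0.244% ± 0.0178 and 0.26% ± 0.0117 for totals of 60 to 79 (SD, n = 4).

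The most abundant piRNAs took the opposite place, as parts of the same whole. The 280 piRNAs with a mean of 1000 or more held 25, 24.2, 23.4 and 22.2% of piRNA counts in the SD mice and 22.4, 22.8, 23.9 and 22.3% in the WD mice. M1N and M2N, where the tail was smallest, had the highest of these shares, followed by M3W. A low share in M1N and M2N was not particular to the tail. At a mean of 10 to under 100 the shares were 16.2, 17, 17.8 and 18.4% in SD and 18.4, 18.1, 17.6 and 18.7% in WD mice. From SD to WD mice the mean share moved by 0.864 percentage points in that range, -0.878 at 1000 or more and 0.0432 in the tail, and the diets overlapped in each.

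**Figure D2:**
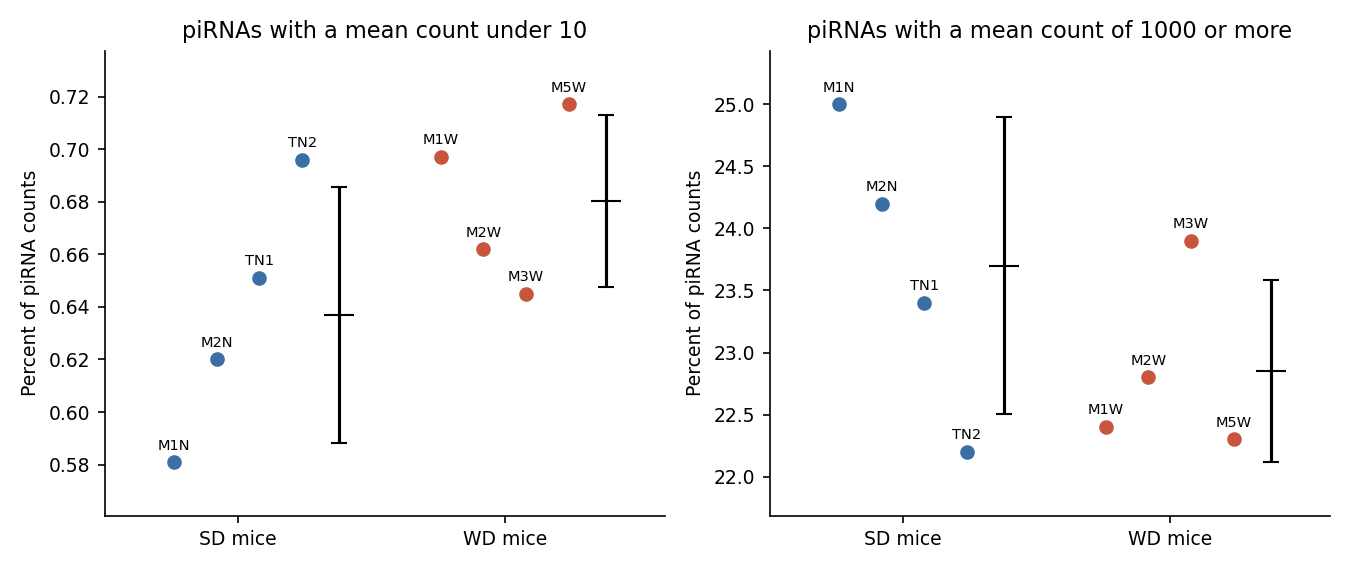
Percent of the piRNA counts of each mouse (vertical axes, which do not start at 0) on piRNAs with a mean count under 10 (left) and of 1000 or more (right), by diet, with the mean and SD of 4 mice as the black bar. On the left M1N is lowest at 0.581% and M5W highest at 0.717%, and on the right M1N is highest at 25%.

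Detection as deposited was lowest in the shallowest libraries. As deposited, 2938, 3010, 3037 and 2898 members had a count above 0 in the SD mice and 3054, 2909, 2874 and 3067 in the WD mice, or 89.0 to 95% of members. TN2, M2W and M3W, the 3 shallowest libraries, had the fewest. Thinned in expectation to the total of the shallowest library, 2064562 counts, the numbers were 2736.2, 2824.4, 2888.5 and 2898.0 in SD mice and 2927.7, 2858.9, 2852.8 and 2926.6 in WD mice. At equal depth M1N and M2N had the fewest members, and M1W and M5W the most.

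A difference in detection between the diets did not pass the test either. At equal depth the mean was 2836.8 ± 74.6 members in SD mice and 2891.5 ± 41.3 in WD mice (SD, n = 4), a difference of 54.7 members (exact permutation test, two-sided, p = 0.314, adjusted p = 0.314). Without thinning it was 5.25 members (exact permutation test, p = 0.886). With M1N and M2N as the only controls, 111 members more were counted in WD mice, which all lay above both (exact permutation test, p = 0.0667, the smallest that 2 against 4 mice can give), whereas against TN1 and TN2 alone the sign turned, to -1.78 members (exact permutation test, p = 0.933). Without M1N the difference was 21.2 members. The 707 low entries of the other classes did not have the same order of mice: at equal depth M5W had the lowest detection there, 80.2%, and TN1 the highest, 89.6%.

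**Figure D3:**
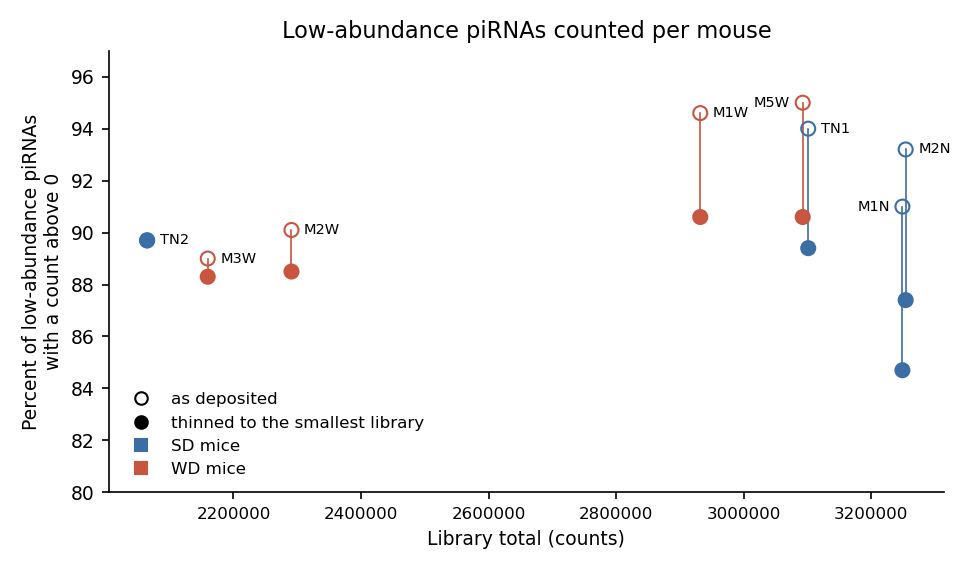
Percent of low-abundance piRNAs with a count above 0 (vertical axis, from 80%) against the library total in counts (horizontal axis), as deposited (open) and thinned to the smallest library (filled), with a line joining the values of each mouse. After thinning M1N is lowest at 84.7%, and M1W and M5W highest at 90.6%.

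In counts as deposited, detection by diet was nearly balanced. These patterns were not brought to equal depth, and libraries averaged 2917025 counts in SD mice and 2618684 in WD mice. More SD than WD mice had a count for 440 members, more WD than SD mice for 473, and equal numbers for 2317. A count in all 4 SD mice and in at most 1 WD mouse was found for 13 members, and the reverse for 18. Members missing in 1 mouse alone were missing most often in M1N, the second deepest library (107 members), and least often in M5W (30 members). Both M controls and neither TN control counted 35 members, and both TN controls and neither M control 21.

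Counts in mice of 1 diet alone were found for 8 members, 6 in SD mice (0.186%) and 2 in WD mice (0.0619%). Of the 707 low entries of the other classes, all 707 had a count in some SD mouse and 701 in some WD mouse. FR107454 had counts of 12, 0, 5 and 0 in SD mice and 0 in each WD mouse, at least 5.09-fold lower in WD mice when the floor of 3 counts over the 4 mice stands for the zeros. This bound leaves out the counting error of the other diet, and the exact 95% upper limit of its ratio of WD to SD mice, which includes it, was 0.27. M1N held 70.6% of the counts of FR107454, and M2N and TN2 had none, so both values rest mostly on 1 mouse. FR075037 had 6, 5, 0 and 0 in SD mice, at least 3.29-fold lower in WD mice at that floor (exact upper limit 0.444), and all its counts were in M1N and M2N. FR300847 had 3, 5, 2 and 0, and FR315055 had 2, 4, 3 and 1, each at least 2.99-fold lower in WD mice at that floor (exact upper limit 0.497). FR315055 was the one of them with a count in each of the 4 SD mice. The other two, FR228028 with 3, 0, 3 and 3 and FR369739 with 3, 6, 0 and 0, were at the lowest total in the table and were named after their values were seen.

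In the other direction, FR149732 had counts of 10, 0, 0 and 10 in WD mice and 0 in each SD mouse, at least 7.43-fold higher in WD mice at that floor, with an exact 95% lower limit of the ratio of 5.5. Its counts were all in M1W and M5W, and 2 WD mice had none. FR078439 had 4, 4, 0 and 4 in WD mice, at least 4.46-fold higher at that floor (exact lower limit 3.1). These members were chosen for their zeros, so the bounds describe them and test nothing.

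The spread between mice of the same diet exceeded counting error in the tail on average, by less in WD than in SD mice. It was measured as the chi-square of a member's 4 counts, with expected counts in proportion to piRNA totals, per degree of freedom; counting error alone gives a mean of 1 and a median near 0.789. Members had a median of 1.23 and a mean of 1.58 in SD mice, and a median of 0.991 and a mean of 1.28 in WD mice. At an equal relative difference between mice this measure grows with the count, so values at different abundance show how far counting error covers the spread and not how variable the piRNAs were. The medians above the tail were 2.4 in SD and 1.45 in WD mice at a mean count of 10 to under 100, 7.92 and 3.26 at 100 to under 1000, and 69.0 and 17.9 at 1000 and over. In each of these ranges, as in the tail, the median was higher in SD than in WD mice. A value over 3 was found for 12.6% of members in SD mice and for 6.67% in WD mice.

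The excess in SD mice lay with M1N and M2N. Computed between 2 mice at a time over all members, the chi-square per degree of freedom was 1.52 to 2.01 for the pairs that include M1N and 1.44 to 1.71 for M2N with the others than M1N. Among the remaining 6 mice it was 1.19 to 1.34, with SD and WD mice mixed. TN1 and TN2 differed from each other by 1.26, and M1N and M2N by 1.52. M1N and M5W, a control and a WD mouse, were the farthest apart, and TN2 and M3W, also a control and a WD mouse, the closest. This measure grows with the count, and depth was not made equal here. TN2 and M3W were the shallowest libraries, at 2064562 and 2159625 counts, and M2N and M1N the deepest, at 3253798 and 3248708. TN1 and M5W, at 3101032 and 3092399 counts, differed by 1.34. The part of depth in these values was not tested. Over all small RNAs the values were 2.42 to 22.2.

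**Figure D4:**
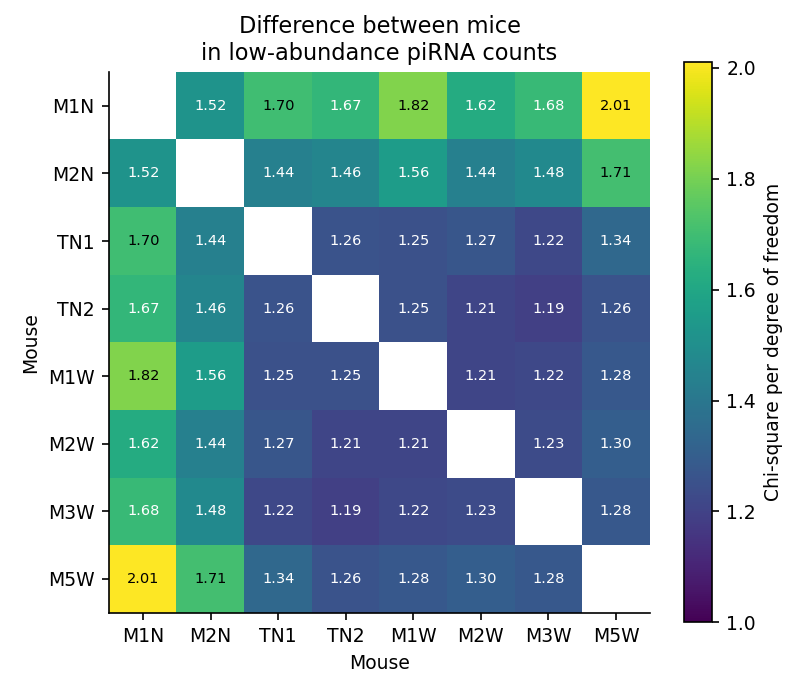
Chi-square per degree of freedom between the counts of 2 mice over the low-abundance piRNAs, for each pair (both axes list the mice, colour and number give the value, 1 being counting error alone). The rows of M1N and M2N stand out with 1.44 to 2.01, and the other pairs lie between 1.19 and 1.34.

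At the upper end of a member's range M1N was hardly ahead of the others. By CPM scaled with TMM factors it was the highest mouse for 14.9% of members, TN2 for 14.6%, M5W for 13.6% and TN1, the least often, for 9.35%. At the lower end M1N was the lowest mouse for 17.9% of the 2687 members with a single lowest mouse, and the other mice for 9.01 to 13.9% each. Among the piRNAs with a mean of 1000 or more M1N was the highest mouse for 48.2%.

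Markers of other cells were at different levels in the pairs of controls. The liver marker miR-122-5p was at 0 in the 6 mice whose names begin with M and at 13.6 to 15.8 CPM in TN1 and TN2. Red blood cell microRNAs (2 of 4 listed) summed to 36.9 to 59.7 CPM in M1N and M2N, to 120 to 152 CPM in TN1 and TN2 and to 77.4 to 131 CPM in WD mice. Leukocyte microRNAs (4 of 4) summed to 387 to 456, 231 to 246 and 211 to 441 CPM in the same order. Endothelial microRNAs (2 of 2) summed to 1885.4 to 1983.5 CPM in M1N and M2N, to 1383.3 to 1445.3 CPM in TN1 and TN2 and to 1294.8 to 2426.5 CPM in WD mice. Smooth muscle microRNAs (2 of 2) summed to 3197.8 to 4164.7 CPM and striated muscle ones (2 of 3) to 32.9 to 48.4 CPM in SD mice, against 3353.6 to 5894.1 and 26.9 to 51.5 CPM in WD mice. The share of counts on rRNA, a sign of RNA quality, was 0.115 to 0.135% in SD and 0.107 to 0.131% in WD mice, and that on tRNA was highest in M1N, 0.815%. Their part in the results was not tested.

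No member passed the adjusted threshold between the diets. In edgeR's quasi-likelihood test over all 20558 small RNAs, 0 of 3230 members had a Benjamini-Hochberg adjusted p under 0.05, where the background over all small RNAs was also 0.0%, and the smallest adjusted p was 0.346. DESeq2 and limma-voom called 0 members too. At an unadjusted p of 0.05 or less, 124 members (3.84%) were higher in WD mice and 90 (2.79%) lower, against a background of 6.35% and 6.98% of all small RNAs. DESeq2 counted 48 and 46 members at this level (2.91% in all, against 10.9% of all small RNAs), and limma-voom 153 and 90 (7.52%, against 13.7%). The share of members at this level was below the background in both directions. In order of abundance, from the tail up, piRNAs higher in WD mice made up 3.84, 7.26, 6.53 and 3.57% of their range, and piRNAs lower in WD mice 2.79, 5.84, 10.9 and 19.6%. Among the low entries of the other classes 1.56% were higher and 6.93% lower.

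The fold changes of low-count small RNAs, in the tail and in the other classes, had larger errors than those of all small RNAs. The median standard error of the log2 fold change (WD over SD) was 0.558 in the tail, 0.652 in the low entries of the other classes and 0.252 over all small RNAs. The log2 fold changes of the members had a median of 0.0544 and quartiles of -0.411 and 0.492, against a median of -0.000487 and quartiles of -0.274 and 0.273 over all small RNAs. A log2 fold change of 1 or more in size was found for 472 members (14.6%), for 20.2% of the low entries of the other classes and for 3.7% of all small RNAs. In the usual filter of edgeR on low counts 330 members (10.2%) passed, none of them with a total under 54, and the test is therefore reported without it.

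By CPM, the WD mice all lay above the SD mice for 55 members (1.7%) and all below them for 57 (1.76%). The background over all small RNAs was 2.78% and 2.5%. From these members, the 5 with the lowest unadjusted p in each direction were chosen to be named, so their values describe the extremes of the tail. The edgeR adjusted p of each was 0.346.

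Among the members lower in WD mice, FR300310 had the lowest p. It had counts of 18, 20, 12 and 6 in SD mice and of 6, 3, 1 and 1 in WD mice, or 4.76 ± 1.75 and 1.02 ± 0.776 CPM (SD, n = 4). TN2 and M1W had the same raw count, and the diets were apart only once scaled to library size, at 2.78 CPM in TN2 and 1.97 CPM in M1W. Its log2 fold change was -2.19 ± 0.51 (SE), and -2.79 without M1W. FR013494 had 11, 5, 7 and 7 in SD mice and 2, 0, 1 and 3 in WD mice, a log2 fold change of -2.16 ± 0.60. FR195375 had 13, 8, 12 and 11 against 4, 5, 2 and 3, a change of -1.53 ± 0.44. In both, the raw counts of the diets were apart as well. FR345976 had 16, 8, 9 and 14 in SD mice and 4, 4, 3 and 4 in WD mice, with a change of -1.55 ± 0.44, and was even across WD mice (1.43 ± 0.226 CPM) and not across SD mice (4.32 ± 1.92 CPM). FR315055, described above, completed the 5.

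Among the members higher in WD mice, FR118300 had counts of 1, 3, 0 and 1 in SD mice and of 10, 6, 8 and 4 in WD mice, or 0.44 ± 0.398 and 2.72 ± 1.07 CPM (SD, n = 4). Its log2 fold change was 2.48 ± 0.66 (SE), and 3.22 without M2N, which held most of its counts in SD mice. Each WD mouse had more counts than any SD mouse. FR380832 had 1, 5, 4 and 4 against 17, 5, 7 and 20, a change of 1.82 ± 0.49, and M2N and M2W shared a raw count of 5. FR087529 had 3, 4, 4 and 3 against 8, 6, 8 and 22, a change of 1.69 ± 0.46, with M5W well above the other WD mice. The last members had hardly a count in SD mice. FR075589 had 0, 0, 3 and 0 against 3, 6, 9 and 9, a ratio of 10 of WD to SD mice with a 95% interval of 3.09 to 51.6 for counting error. All its counts in SD mice were in TN1, so the ratio rests on that mouse. TN1 and M1W had the same raw count, at 0.948 and 0.986 CPM. FR203471 had 0, 1, 0 and 0 against 5, 2, 2 and 4, a ratio of 14.5 with an interval of 2.18 to 615, which a single count in M2N set.

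**Figure D5:**
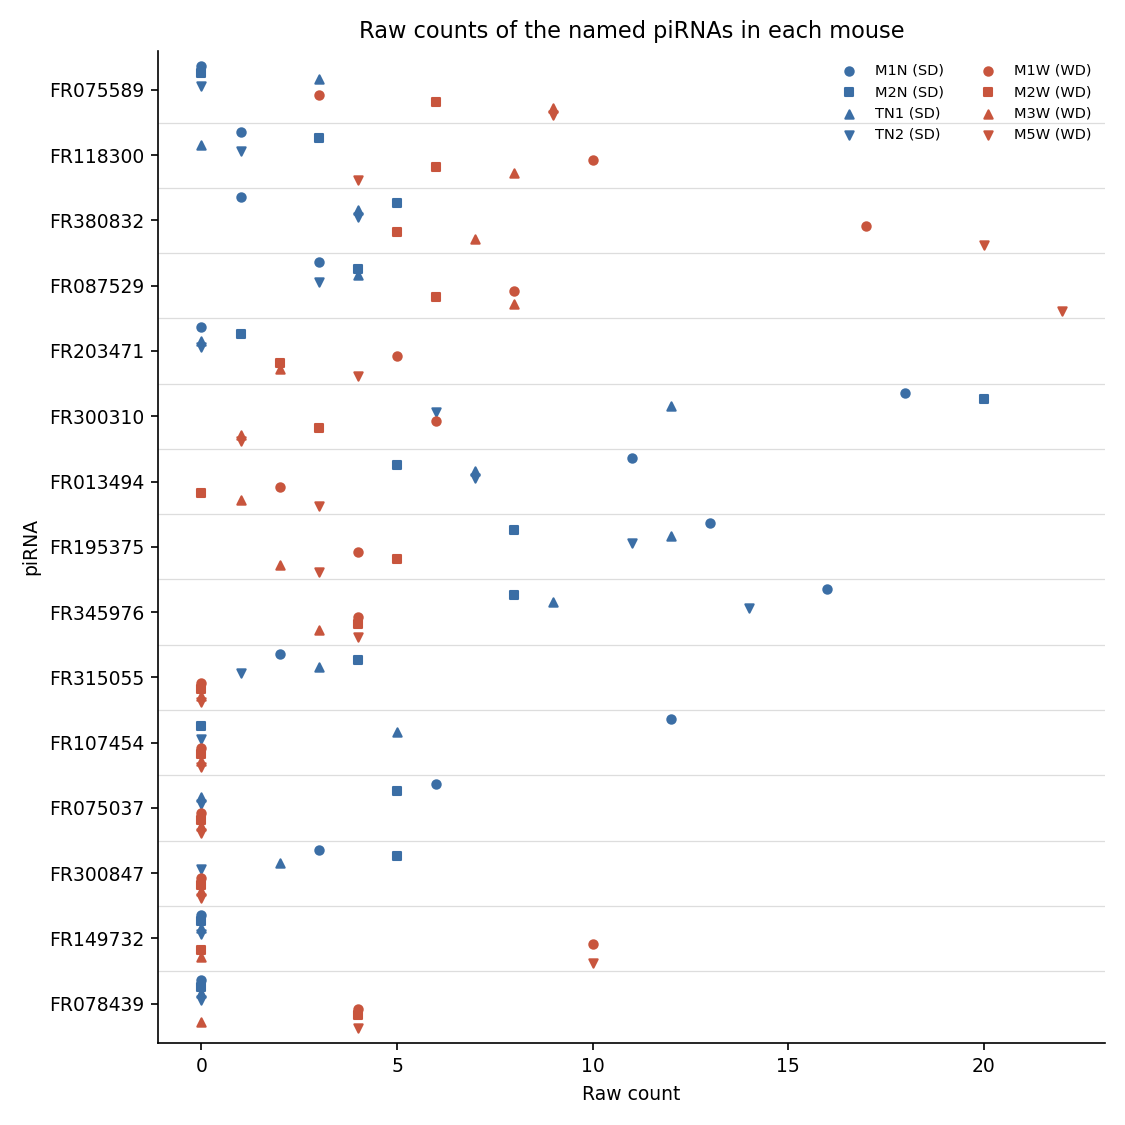
Raw count (horizontal axis) in each of the 8 mice, 1 marker per mouse, coloured by diet, for low-abundance piRNAs named in the text (vertical axis). From FR075589 to FR315055 the diets do not overlap by CPM, FR315055 to FR300847 have no count in WD mice, and FR149732 and FR078439 have none in SD mice.

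The count of members past the adjusted threshold depended on the controls used. Against M1N and M2N alone, edgeR gave 88 members (2.72%) an adjusted p under 0.05, 52 higher and 36 lower in WD mice, where the background over all small RNAs was 16.5%. Against TN1 and TN2 alone it gave 0 members, where the background was 0.112%, and an unadjusted p of 0.05 or less was found for 130 members (4.02%) and for 4.06% of all small RNAs. The comparisons share the 4 WD mice. In the first, the share of calls was 15.2%, 28.2% and 38.2% in the ranges above the tail, in order of abundance, and 1.13% in the low entries of the other classes.

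The log2 fold changes of the named members moved either way between the pairs of controls. For FR300310 the log2 fold change was -2.56 against M1N and M2N and -1.66 against TN1 and TN2. For FR133228, whose high count was in M1N, it was -2.53 and -0.73 (-0.56 in all mice but M1N), and for FR227090 -1.89 and 0.31, with the sign turned. For FR113693 it was -2.05 against M1N and M2N, and the sign turned as well, since the 12 counts of its WD mice stood against 0 in TN1 and TN2, at least 1.97-fold higher at the floor of 3 counts. For FR118300 the change was larger against the TN pair, 1.94 against M1N and M2N and 3.51 against TN1 and TN2. FR380832 had 2.14 and 1.55, and FR013494 -2.16 and -2.16. FR075589 was at 0 in M1N and M2N and FR203471 in TN1 and TN2, so no fold change against these pairs is given. For FR195375 it was -1.37 and -1.69, for FR345976 -1.47 and -1.62, and for FR087529 1.78 and 1.6, so these had values of like size against both pairs. Over all alternatives run, other tools included, the edgeR or other adjusted p of FR300310 ranged from 0.00337 to 1.0, that of FR345976 from 0.0593 to 1.0 and that of FR195375 from 0.0917 to 0.928.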

How the data were processed

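Small RNA from testes was analysed in 8 libraries, each taken as 1 mouse and grouped by the diet in the sample titles. The authors removed adaptors, cut reads without one to 31 bases, used Bowtie with up to 2 mismatches for the alignment to mm9, took names from miRBase 18 and other databases, and deposited raw counts per small RNA, without normalisation. The submitters' processing notes also name DESeq, and the version of Bowtie is not given in the sources used here.

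The deposited counts of all 20558 small RNAs were tested with edgeR 4.0.16 (R 4.3.3), with TMM factors, the earlier form of the quasi-likelihood test, no filter on low counts and Benjamini-Hochberg adjustment over all of them. Standard errors were derived from the F statistic. CPM values are on TMM-scaled library sizes. Shares and detection per mouse were compared by exact permutation (scipy 1.17.1). Detection at equal depth is the hypergeometric expectation at 2064562 counts. Ratio intervals are exact, conditional on the total. The procedure was checked on artificial counts with known changes, and matplotlib 3.10.9 drew the figures.

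The members and lists were chosen with earlier results of these data known. The members named are the 5 per direction with the lowest p among those whose diets do not overlap by CPM, up to 4 per diet with the highest total among those at 0 in the other diet, the 3 with the largest share in 1 mouse at a total of at least 40, the 2 piRNAs on each side of the limit, and the 2 evenest. Alternatives were DESeq2 1.42.0, limma-voom (limma 3.58.1), the newer quasi-likelihood method, other scalings, edgeR's filter (minimum count 10, minimum total 15), each pair of controls, a replicate block, each mouse left out, other limits of the tail and other rules of detection.

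The number 1 occurs in the names M1N and M1W and the number 2 in M2N and M2W, which are different animals. Their deviations from the diet means had a correlation of -0.0253 over the members and -0.0466 over all small RNAs, so the numbers were not taken to pair the mice.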

Additional observations from a re-analysis of the deposited data

Results flagged for a closer look

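Of 49 groups of 4 mice examined for a mouse far from the rest, 4 had one. The 2.45 that chance would give holds for values not chosen for being extreme. These groups included members named for extreme counts, and with the other mice at 0 any count is flagged, so the 2 numbers cannot be compared. Among the SD mice TN2 had a library total of 2064562, and the others had 3101032 to 3253798. FR075589 had 0.948 CPM in TN1 and 0 in the other SD mice, and FR203471 had 0.32 CPM in M2N and 0 in the others, which are 3 counts and 1 count. FR133228 had 12.1 CPM in M1N and 1.28 to 2.32 CPM in the other SD mice, and was chosen for its high count in 1 mouse. No explanation of these values was tested.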

How the results depend on the processing

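Of the values recomputed for the comparisons, 90 kept their direction and their side of the threshold or, for counts, stayed within 1.5 times, 36 moved and 1 turned its sign: members detected at equal depth, which was -1.78 members against TN1 and TN2 alone. The difference in the share of the tail, 0.0432 percentage points of piRNA counts, was 0.0794 and 0.00696 points against M1N and M2N or TN1 and TN2, and 0.0246 (without M1N) to 0.0627 (without TN2) with a mouse left out. For a mean count under 5 the shares were 0.193% in SD and 0.205% in WD mice, and for one under 20, a set of 5513 piRNAs, 1.97% and 2.12%. No member passed an adjusted p of 0.05 except against M1N and M2N alone (88), and among the 4 M1 and M2 mice with the replicate block (21, or 0.65%, against 5.29% of all small RNAs) and without it (13, or 0.402%, against 3.97%). The replicate block gave 91 members higher and 93 lower at an unadjusted p up to 0.05 (5.7%, against 19.5% of all small RNAs), and the mice share only a number. At that level the numbers higher and lower in WD mice were 48 and 46 with DESeq2, 18 and 11 with edgeR's filter, which tests fewer members (8.79%, against 14.6% of all tested), 214 and 143 against M1N and M2N (11.1%, against 31.5%), and 76 and 54 against TN1 and TN2 (4.02%, against 4.06%). They were 58 and 43 for a mean count under 5 (3.38% and 2.5% of 1718 piRNAs) and 255 and 174 for one under 20 (4.63% and 3.16% of 5513), against 6.35% and 6.98% of all small RNAs. With a mouse left out they ranged from 87 (without M5W, 2.69% against 3.36% of all small RNAs) to 164 (without TN2, 5.08% against 9.89%) and from 70 (without M2N, 2.17% against 4.66%) to 102 (without TN2, 3.16% against 10.4%). The members that were higher made up 57.9% of those at this level, 63.9% with column totals and 48.9% without M5W. Over all small RNAs these shares were 47.6%, 55.7% and 45.2%, and for piRNAs with a mean of 10 to under 100 the first was 55.4%. Members without overlap of the diets, higher and lower, were 26 and 35 by raw counts (0.805% and 1.08%, against 0.423% and 0.817% of all small RNAs), 384 and 298 against M1N and M2N (11.9% and 9.23%, against 19.8% and 18.7%) and 167 and 230 against TN1 and TN2 (5.17% and 7.12%, against 5.78% and 6.8%). With a mouse left out they ranged from 81 (without M1N, 2.51% against 3.41% of all small RNAs) to 142 (without TN2, 4.4% against 7.07%), and from 86 (without M2W, 2.66% against 5.47%) to 117 (without TN2, 3.62% against 6.45%). Fewer mice overlap less often, in the tail and outside it. The members named for their diets, their zeros or their high count in 1 mouse numbered 18. Of these, 12 passed an adjusted p of 0.05 against M1N and M2N alone, where 2.72% of all members and 16.5% of all small RNAs passed. Of the 12, 3 also passed with the replicate block, and none of the 18 passed under the other alternatives. All 18 were chosen from these same counts, so these numbers describe them and test nothing. Against TN1 and TN2 the log2 fold change of FR227090 turned to 0.31, and FR113693, at 0 in both, was at least 1.97-fold higher in WD mice. With 4 mice per diet no exact p under 0.0286 was possible, and with a median of 37 counts over 8 mice the standard errors, 0.558 at the median on the log2 scale, limit what could be seen.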
